A study of Homo sapiens with 12 samples.

Results

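The genes described here are 45 genes of DNA replication and mitosis out of 19775 genes measured. They were listed by symbol, and all 45 were found in the probe annotation, each read from 1 probe set, the brightest on average over the 12 arrays. Of these, 24 belong to S phase and 21 to G2 and mitosis. RNA came from L428 and L1236, established lines of classical Hodgkin lymphoma, a tumour that derives from B cells. Each line was measured untreated and after 5-Aza-dC, with 3 arrays in each of the 4 groups. 5-Aza-dC, also called decitabine, resembles deoxycytidine, is built into DNA during replication and there traps DNA methyltransferases. Treated cells received 1 µM for 24 h and were collected after 72 h more in medium free of the drug, and untreated cells were grown in the same kind of medium. No vehicle control is named in the labels. Each line derives from 1 tumour, so a difference between them is one between 2 lines and not between types of disease.

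Replication starts from origins at which ORC, CDC6 and CDT1 load the ring of MCM2 to MCM7, which CDC45 and the GINS complex turn into a moving helicase. Polymerase alpha and primase then lay down primers, replication factor C loads the PCNA clamp, and ribonucleotide reductase and thymidylate synthase supply the building blocks. Entry into mitosis rests on cyclins A and B with CDK1 and on the kinases PLK1, AURKA and AURKB, and the checkpoint of BUB1, BUB1B and TTK holds chromosomes until spindle fibres are attached. In cycling cells, E2F factors drive the transcription of S-phase genes, and the MuvB complex with B-MYB and FOXM1 drives that of mitotic genes through a promoter element called the CHR. RNA of bulk cells was measured, so fewer cells in a phase of the cycle and less of a transcript per cell cannot be told apart.

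All values are log2 signals, and a difference of 1 is a factor of 2. Levels are given as mean ± SD over 3 arrays and changes as log2 difference ± SE from limma, with p-values adjusted over all 19775 genes. The lowest value of any member on any array was 6.97 (E2F1), while CD3E, a T-cell gene that these lines do not use, lay at 1.74 to 1.76 in the 4 group means. Of 8 Hodgkin markers, 6 including TNFRSF8 (CD30) and IRF4 had group means of 8.87 to 14.90, TRAF1 lay at 11.49 and 11.69 in L428 but 2.10 and 2.07 in L1236, and CCL22 at 3.10 and 3.61 untreated and 6.86 and 10.07 treated. Of 7 B-cell genes that Hodgkin cells often lose, 5 had group means of 2.08 to 5.58, while PAX5 (11.78 and 12.61) and POU2AF1 (13.41 and 12.22) were high in untreated and treated L1236 and lay at 2.39 to 6.54 in L428. Of 9 T- and NK-cell genes, 2 rose in L1236 and 1 in L428, and of 8 myeloid genes 3 and 2. Of 10 genes of stroma, endothelium and epithelium, 4 rose in L1236 and 0 in L428. Among all genes, 8.59% were called higher in L1236 and 3.32% in L428. EPCAM in L1236 lay at 2.83 untreated and 8.20 treated. The mean of these lists ran from 2.65 to 4.40 on untreated and from 3.07 to 5.79 on treated arrays. CD3E, CD14 and LYZ lay between 1.74 and 2.80 in all group means. In L1236, TYROBP went from 3.35 untreated to 9.40 treated, AIF1 from 5.82 to 7.99 and ITGAM from 3.97 to 5.60. CD8A went from 1.97 to 5.33 there and CD3D from 4.13 to 6.56. In L428, TYROBP went from 2.79 to 6.87, AIF1 from 5.87 to 7.26 and CD2 from 2.75 to 4.46. The part of these genes in the results below was not tested. The SD of an array's deviations from its group mean was 0.449 on the first treated L428 array and 0.384 on the first treated L1236 array, against 0.156 to 0.315 on the other 10. The source name of the first untreated L1236 array describes treated L428 cells, while its description reads untreated L1236. It was grouped by its description. Over all genes this array correlated at 0.9944 and 0.9951 with the other untreated L1236 arrays. POU2AF1 lay at 13.41 ± 0.15 in untreated L1236 and at 2.39 in treated L428. These values match the description.

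The promoters of the members were examined because S-phase and mitotic genes are known to carry different elements. Windows from 250 bases before to 50 bases after the start site were at hand for 38 of the 45 members (21 S-phase and 17 G2 and mitosis genes), from RefSeq on GRCh38.p14. Patterns were searched on both strands: TTTCCCGC, TTTGGCGC, TTTCGCGC or TTTGCCGC for E2F, TTTGAA or TTCGAA for the CHR, and CCAAT. In the 250 bases before the start, an E2F pattern was present in 10 of 21 S-phase promoters (47.6%), in 1 of 17 G2 and mitosis promoters (5.88%) and in 2.79% of 27305 promoters of all genes. A CHR pattern was present in 2 of 21 S-phase promoters (9.52%), in 8 of 17 G2 and mitosis promoters (47.1%) and in 14.6% of all promoters. CCAAT occurred in 66.7% of S-phase and 82.4% of G2 and mitosis promoters, against 33.0% of all. In 300 bases that include the first 50 after the start, the E2F shares were 61.9% and 11.8%, against 3.33% of all promoters, and the CHR shares 9.52% and 64.7%, against 16.6%. Of each promoter the following lines give 100 bases 5′ to 3′ on the strand of the gene, with every E2F, CHR and CCAAT pattern in capitals. With the first transcribed base counted as 0, they are bases -100 to -1 of GINS2, KIF11 and BUB1B, -150 to -51 of POLA1, -160 to -61 of MCM6 and -130 to -31 of CDC45 and MCM10, all before the start. GINS2, POLA1 and MCM6 are shown because they fell in L1236, and CDC45 and MCM10 because they rose there. KIF11 and BUB1B had the smallest p-values among the G2 and mitosis genes in L1236 and in L428. Other genes that fell or rose in L1236, such as RRM1 and CDC6, are not shown.
GINS2 chr16:85688955-85689054 (minus strand): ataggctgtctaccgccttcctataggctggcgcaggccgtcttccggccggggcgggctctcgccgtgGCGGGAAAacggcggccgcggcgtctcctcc
POLA1 chrX:24693768-24693867 (plus strand): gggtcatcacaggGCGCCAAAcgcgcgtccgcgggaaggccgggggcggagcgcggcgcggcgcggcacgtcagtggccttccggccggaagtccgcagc
MCM6 chr2:135876504-135876603 (minus strand): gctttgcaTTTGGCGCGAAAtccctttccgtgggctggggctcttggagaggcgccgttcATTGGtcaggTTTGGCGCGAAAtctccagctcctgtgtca
CDC45 chr22:19479790-19479889 (plus strand): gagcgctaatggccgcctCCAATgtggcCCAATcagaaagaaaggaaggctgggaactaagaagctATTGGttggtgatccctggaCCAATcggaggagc
MCM10 chr10:13161428-13161527 (plus strand): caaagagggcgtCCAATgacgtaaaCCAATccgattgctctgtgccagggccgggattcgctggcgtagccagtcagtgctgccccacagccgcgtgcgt
KIF11 chr10:92593030-92593129 (plus strand): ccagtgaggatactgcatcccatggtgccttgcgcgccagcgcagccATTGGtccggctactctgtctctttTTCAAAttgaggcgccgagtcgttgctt
BUB1B chr15:40160969-40161068 (plus strand): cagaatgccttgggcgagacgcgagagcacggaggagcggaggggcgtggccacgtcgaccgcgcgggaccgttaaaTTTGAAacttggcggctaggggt
The capitals in GINS2 and POLA1 mark 1 E2F pattern each, and those in MCM6 mark overlapping E2F patterns of both strands at each of 2 places, with a CCAAT read on the other strand as ATTGG between them. CDC45 and MCM10 hold only CCAAT here, 4 and 2 times. KIF11 holds a CCAAT and a CHR, and BUB1B a CHR alone. Such matches describe letters and not bound sites.

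In untreated cells, some members of both gene classes were called between the lines. L1236 had more transcript of both cyclins E, which drive the G1/S transition with CDK2, and less MCM10, BIRC5, MKI67 and AURKB than L428. The test called 16 of 45 members, 7 higher in L1236, against 15.2% of all genes, and 9 lower, against 13.6%. Of the 24 S-phase genes 6 were higher and 5 lower, with a median difference of 0.19. Of the 21 G2 and mitosis genes 1 was higher and 4 were lower, with a median of -0.40, and the median over all genes was -0.02. The members are bright, at percentiles 65.4 (E2F1) to 99.5 (RRM2) of mean level among all genes. With the dimmer genes left out (9888 kept), 28.5% of genes were called higher and 26.2% lower. Then 7 S-phase genes and 1 G2 and mitosis gene were called higher, and 5 and 6 lower.

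**Figure D1:**
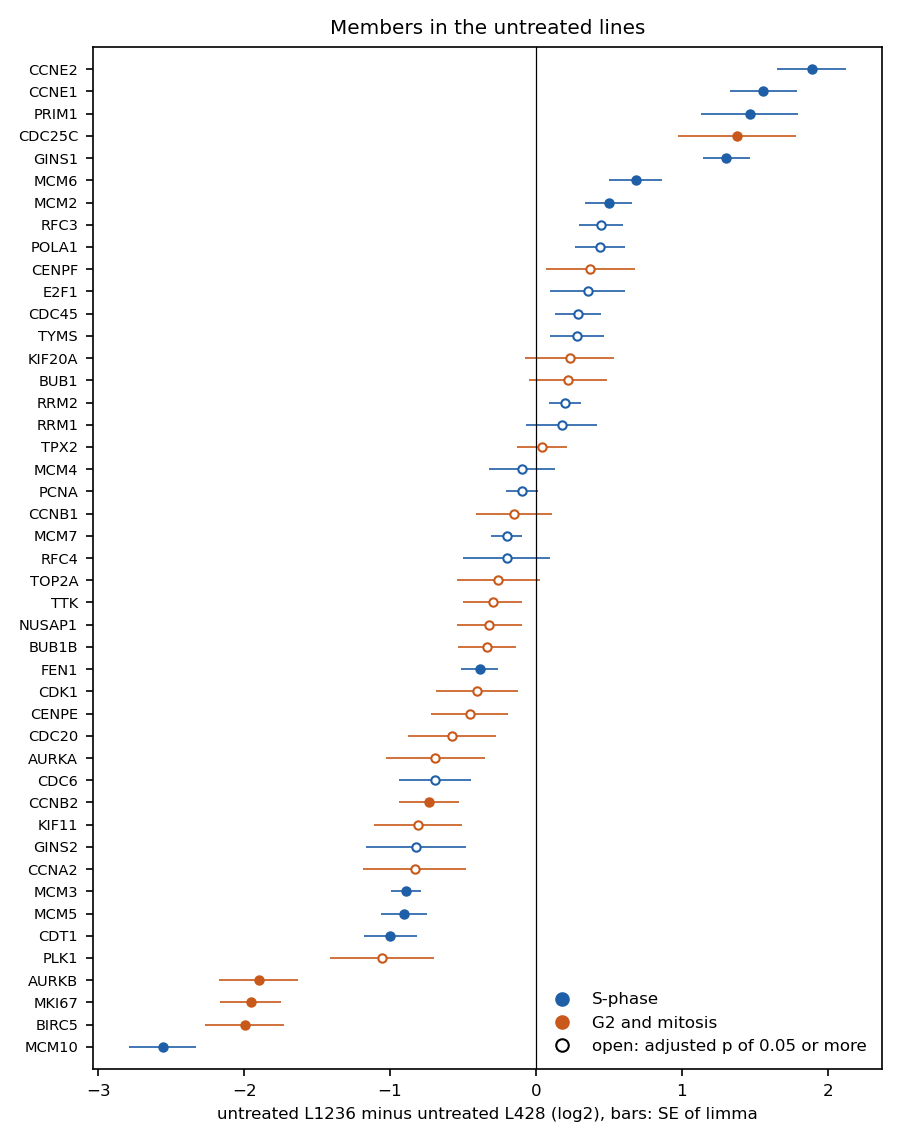
Difference between the untreated lines for each of the 45 members, as untreated L1236 minus untreated L428 on the log2 scale, with bars of 1 SE and filled points at an adjusted p under 0.05. CCNE2 lies highest at 1.89 and MCM10 lowest at -2.56, and 4 of the 5 called G2 and mitosis genes lie below 0.

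Among the helicase genes, MCM10, which helps the CMG helicase start, read 13.44, 13.17 and 13.17 on the untreated L428 arrays and 11.09, 10.53 and 10.49 on those of L1236. The groups were far apart, with a difference of -2.56 ± 0.23 (adjusted p = 3.25e-05), a factor of 5.89. The loading factor CDT1 (-1.00 ± 0.18) and the ring subunits MCM5 (-0.90 ± 0.16) and MCM3 (-0.89 ± 0.10) were also lower in L1236. The ring subunits MCM6 (0.68 ± 0.18) and MCM2 (0.50 ± 0.16) and the GINS subunit GINS1 (1.30 ± 0.16) were higher, so genes of 1 complex stood on both sides. At the fork, the primase subunit PRIM1 was higher by 1.46 ± 0.33 and the flap endonuclease FEN1 lower by 0.39 (difference -0.39 ± 0.12, adjusted p = 0.045). The 3 nucleotide supply genes, ribonucleotide reductase subunits RRM1 and RRM2 and thymidylate synthase TYMS, differed by 0.18 to 0.28, and none passed the test.

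Of the G1/S regulators, CCNE2 read 8.01, 7.50 and 7.21 in untreated L428 and 9.02, 9.72 and 9.64 in untreated L1236. The ranges did not overlap, and the difference was 1.89 ± 0.24 (adjusted p = 0.000262). CCNE1 was higher in L1236 by 1.56 ± 0.23, a factor of 2.94, and E2F1, which activates many of these genes, differed by 0.35 ± 0.26 without passing the test (adjusted p = 0.429).

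Among the mitotic genes, BIRC5 (survivin), a subunit of the chromosomal passenger complex, read 12.64, 12.95 and 12.72 in untreated L428 and 10.61, 10.88 and 10.83 in untreated L1236. Every L1236 array lay below every L428 array, by -1.996 ± 0.27 in the fit (adjusted p = 0.000431). AURKB, the kinase of the same complex, was lower by a like amount on the probe set used (-1.90 ± 0.27). A dimmer AURKB probe set had untreated means of 8.12 in L428 and 3.39 in L1236. The other BIRC5 probe sets went from 10.80 to 9.01, from 10.75 to 7.25 and from 7.30 to 6.30. MKI67, the gene of the proliferation marker Ki-67, read 10.85, 11.10 and 11.41 in L428 and 9.05, 9.18 and 9.26 in L1236, a difference of -1.95 ± 0.21. Its probe sets differed in size: in the other 3, the group means went from 10.81 to 8.92, from 9.86 to 8.63 and from 9.41 to 9.03. Cyclin B2 (CCNB2) was lower by 0.73 (difference -0.73 ± 0.21), and CDC25C, the phosphatase that activates CDK1, was the only G2 and mitosis gene called higher (1.38 ± 0.40). Blocked by replicate number, FEN1 (adjusted p = 0.0523) and MCM2 (0.0536) no longer passed. With every array centred on its own median, 5 members were called higher (12.1% of all genes) and 15 lower (20.1%), the median of the S-phase genes was -0.047, and MCM2 and MCM6 were not called.

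In L428 treated with 5-Aza-dC, none of the 45 members passed the test in limma, while 4.65% of all genes were called. None passed with the dimmer genes left out either, where 11.2% of the genes kept were called. At an unadjusted p under 0.05 there were 5 members, against 19.7% of all genes: CDC45, RRM2 and CDC6 with positive changes, and BUB1B and KIF11 with negative ones. The median change was -0.04 for the S-phase genes and -0.14 for the G2 and mitosis genes, with -0.02 over all genes. In 5 members the 3 treated arrays lay above the 3 untreated ones (MCM4, CDC45, GINS1, RRM2 and CCNB1), against 9.21% of genes, and in 3 they lay below (TYMS, BUB1B and KIF11), against 8.67%.

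CDC45, which joins MCM and GINS in the helicase, read 9.51, 9.38 and 9.51 untreated and 10.29, 9.70 and 10.01 treated in L428. The arrays did not overlap, and the change was 0.53 ± 0.16 with a 95% interval of 0.17 to 0.89, but the adjusted p was 0.0998. CDC6 read 9.88, 10.37 and 10.42 untreated and 10.24, 11.07 and 11.14 treated. Its first array was the lowest of each group, the groups overlapped, and the change was 0.60 ± 0.25 (adjusted p = 0.22). RRM2, the regulated subunit of ribonucleotide reductase, read 14.09, 14.30 and 14.32 untreated and 14.32, 14.79 and 14.65 treated. Its change of 0.35 ± 0.11 (adjusted p = 0.124) turned to -0.084 with arrays centred on their medians, which moved the all-gene median to -0.45.

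BUB1B, a kinase-like protein of the spindle checkpoint, read 11.94, 11.85 and 12.001 untreated and 11.83, 11.07 and 11.25 treated in L428. The first treated array lay next to the untreated ones and the others lay lower, and the change was -0.55 ± 0.20 (adjusted p = 0.167). KIF11, the motor that pushes spindle poles apart, read 11.22, 10.92 and 11.01 untreated and 10.72, 10.25 and 10.13 treated (-0.68 ± 0.30, adjusted p = 0.253). BIRC5 read 12.81, 11.96 and 12.13 after treatment, so that its first treated array fell inside the untreated range (-0.47 ± 0.27, adjusted p = 0.404). In all 3 genes the first treated array was the highest of its group.

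Over all genes, the first treated L428 array correlated best with an untreated array, the first of L428 (r = 0.9891). Its lowest correlation within its own group was 0.981, while treated L428 arrays 2 and 3 correlated with each other at 0.9976. The cause was not tested. The calls in L428 changed when the first treated array was left out. Without it 4 members passed, with CDC6 (0.89) and RRM2 (0.48) higher, against 9.65% of genes, and BUB1B (-0.77) and E2F1 (-0.79) lower, against 8.21%. Without the first array of all 4 groups 15 passed, 2 higher against 14.4% and 13 lower against 14.6%: BIRC5, BUB1B, KIF11, KIF20A, PLK1 and TOP2A of mitosis, and GINS2, MCM6, MCM10, PRIM1, RFC4, RRM1 and TYMS of S phase. Without the first treated L1236 array 1 member passed (KIF11, lower), where 1.48% of all genes were called lower. Centring each array on its median moved the median change of all genes to -0.45, and then 22 members were called lower and none higher, where 60.6% of all genes were called lower.

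**Figure D2:**
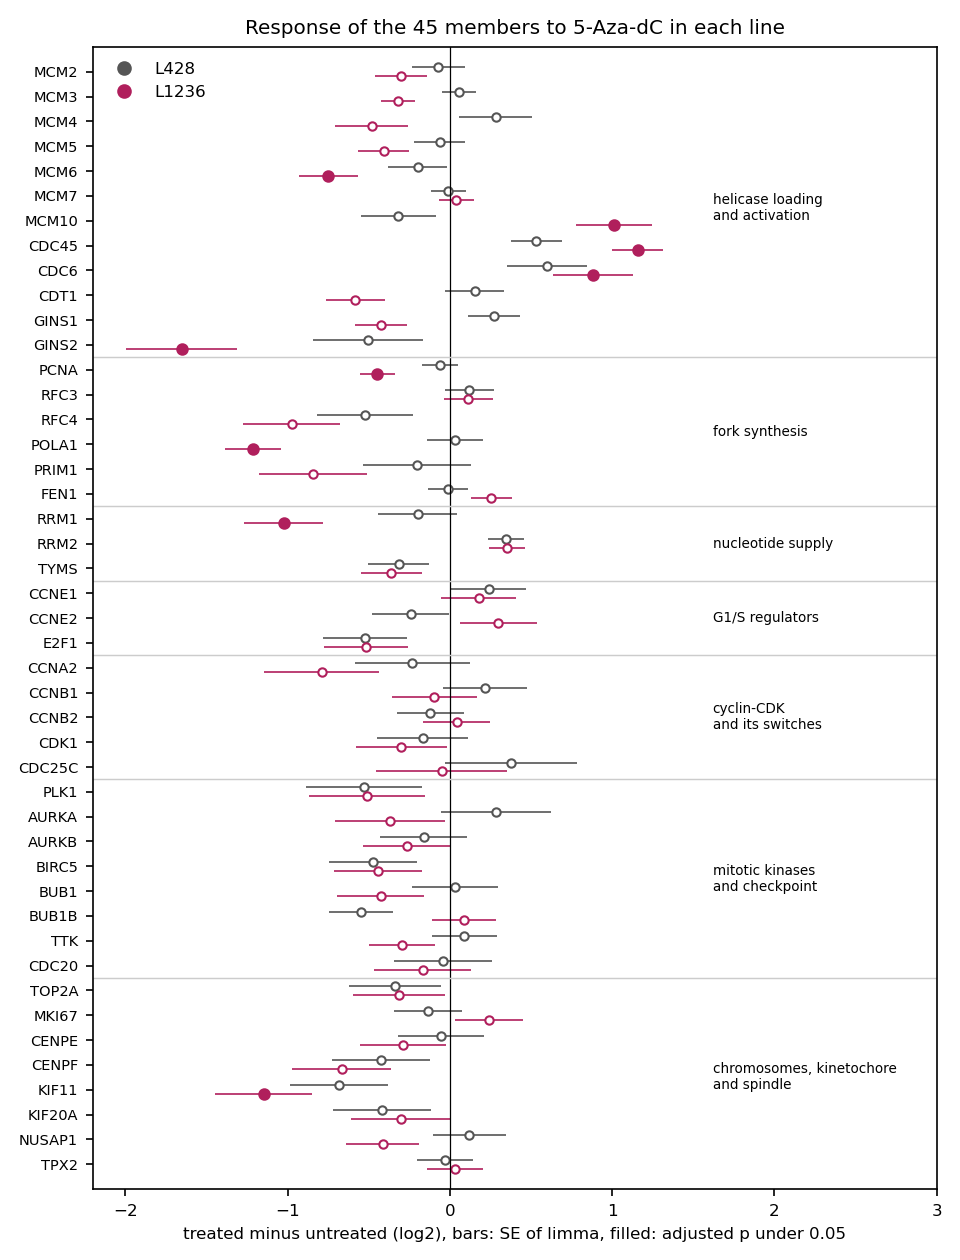
Change of each member after 5-Aza-dC in L428 (grey) and L1236 (red) on the log2 scale, with bars of 1 SE and filled points at an adjusted p under 0.05, ordered by role. No L428 point is filled, and the 9 filled L1236 points run from -1.65 (GINS2) to 1.16 (CDC45), 8 of them in S-phase genes.

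In L1236 treated with 5-Aza-dC, 9 of the 45 members passed. CDC45, MCM10 and CDC6, which all act in helicase loading and activation, rose, while GINS2, MCM6, POLA1, PCNA, RRM1 and KIF11 fell. These are 3 members higher against 8.59% of all genes and 6 lower against 6.35%. Of the 24 S-phase genes 3 rose and 5 fell, and of the 21 G2 and mitosis genes 1 fell. The median change was -0.38 for the S-phase genes and -0.30 for the G2 and mitosis genes, against -0.03 over all genes. Where the dimmer genes were left out, the test called 14.4% of the genes kept higher and 14.3% lower. There 3 S-phase genes were called higher, and 7 S-phase genes and 1 G2 and mitosis gene lower. With each array centred on its median, the all-gene median moved to -0.51, 1 member was called higher (CDC45, 0.68), against 6.09% of genes, and 30 lower, against 65.2%.

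Among the helicase genes, CDC45 read 9.97, 9.76 and 9.53 untreated and 10.77, 10.92 and 11.05 treated in L1236. Every treated array lay above every untreated one, and CDC45 rose by 1.16 ± 0.16 (adjusted p = 0.00183), a factor of 2.23. MCM10 read 11.09, 10.53 and 10.49 untreated and 11.31, 11.92 and 11.91 treated. It rose by 1.01 ± 0.23 (adjusted p = 0.0207), the groups did not overlap, and the highest untreated and the lowest treated value were both on the first array. The treated mean of 11.71 ± 0.35 remained below the 13.26 ± 0.15 of untreated L428. CDC6 read 9.34, 9.72 and 9.52 untreated and 10.23, 10.45 and 10.56 treated, a rise of 0.88 ± 0.25 (adjusted p = 0.0437) with no overlap. These 3 kept their sign under median centring, but only CDC45 passed there (MCM10 adjusted p = 0.0595, CDC6 0.152).

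The subunit GINS2 moved the other way. It read 12.08, 12.63 and 12.49 untreated and 11.45, 10.48 and 10.31 treated, and fell by 1.65 ± 0.34 (adjusted p = 0.0135), a factor of 3.14. The groups did not overlap, and the first treated array was the least changed. A dimmer probe set of GINS2 changed by -1.57. GINS1, of the same complex, changed by -0.42 ± 0.16 and did not pass (adjusted p = 0.12). MCM6 read 13.35, 13.36 and 13.29 untreated and 12.98, 12.38 and 12.39 treated, and fell by 0.75 ± 0.18 (adjusted p = 0.0263). The other ring subunits MCM2, MCM3, MCM4 and MCM5 had changes of -0.30 to -0.48 that did not pass, MCM7 one of 0.04 ± 0.11, and CDT1 one of -0.58 ± 0.18 (adjusted p = 0.0641).

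**Figure D3:**
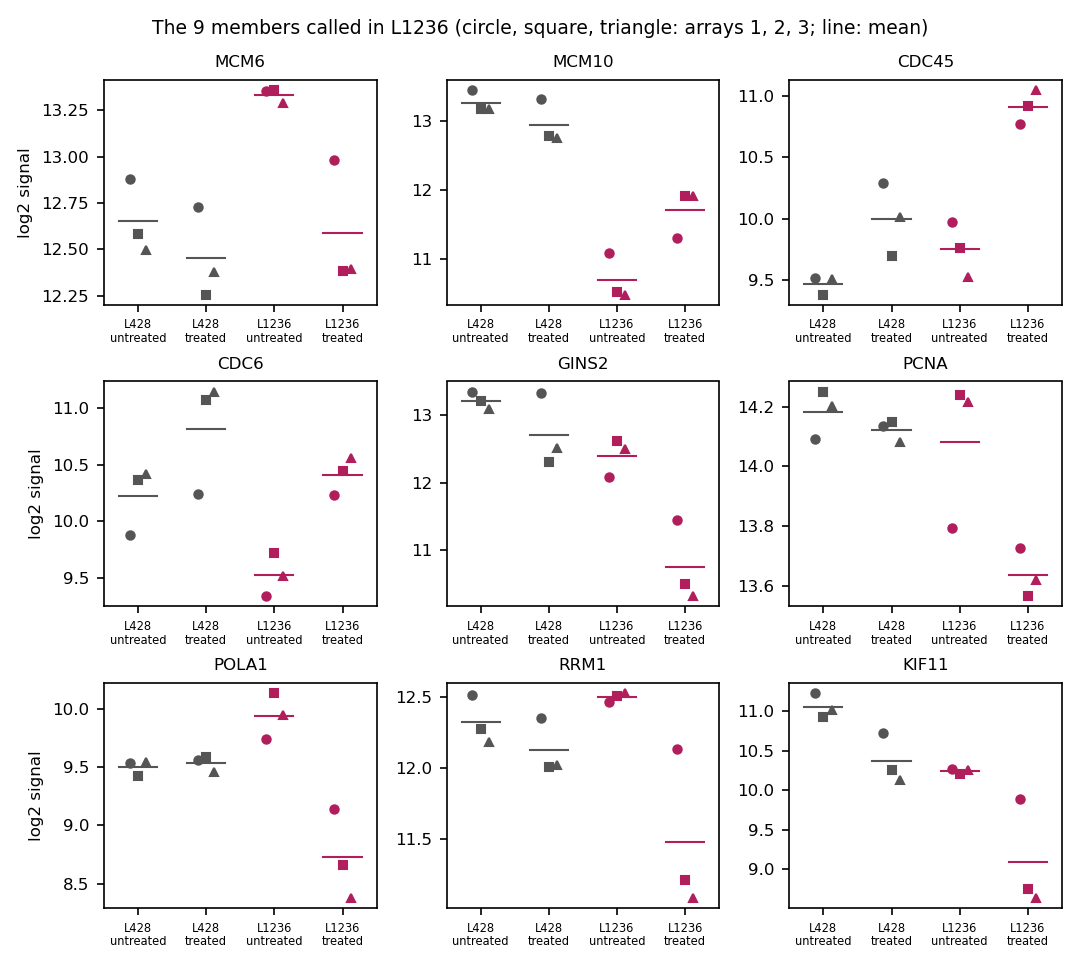
Log2 signal on every array for the 9 members called in L1236, with circles, squares and triangles for arrays 1, 2 and 3 and a line at each group mean. In L1236 the treated and untreated arrays do not overlap for any of the 9, and the first treated array lies closest to the untreated ones in all 9.

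At the fork, POLA1, the catalytic subunit of DNA polymerase alpha, read 9.74, 10.13 and 9.95 untreated and 9.14, 8.66 and 8.38 treated in L1236. All treated arrays lay below all untreated ones, and it fell by 1.21 ± 0.17 (adjusted p = 0.00239), a factor of 2.32. PCNA, the sliding clamp, read 13.79, 14.24 and 14.22 untreated and 13.73, 13.56 and 13.62 treated. Its first untreated array lay only just above the treated ones, and it fell by 0.45 ± 0.11 (adjusted p = 0.0268). RFC4 of the clamp loader (-0.98 ± 0.30, adjusted p = 0.0587) and PRIM1 (-0.84 ± 0.33, adjusted p = 0.13) did not pass. RFC3 (0.11 ± 0.15) and FEN1 (0.26 ± 0.12) had positive changes that did not pass and that were -0.37 and -0.22 under median centring.

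Of the nucleotide supply genes, RRM1, the large subunit of ribonucleotide reductase, read 12.46, 12.51 and 12.52 untreated and 12.13, 11.21 and 11.09 treated. The untreated arrays lay close together with all treated ones below them, and RRM1 fell by 1.02 ± 0.24 (adjusted p = 0.0242). Its partner RRM2 read 14.51, 14.38 and 14.43 untreated and 14.83, 14.74 and 14.80 treated, a change of 0.35 ± 0.11 with no overlap. It did not pass (adjusted p = 0.0673) and was -0.13 under median centring. A second, also bright probe set of RRM2 changed by 0.05. TYMS changed by -0.36 ± 0.19. The G1/S regulators CCNE1 (0.18 ± 0.23), CCNE2 (0.30 ± 0.24) and E2F1 (-0.52 ± 0.26) did not pass, and the changes of CCNE1 and CCNE2 were -0.30 and -0.18 under median centring.

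Of the G2 and mitosis genes, KIF11 read 10.27, 10.20 and 10.26 untreated and 9.89, 8.75 and 8.64 treated in L1236. It fell by 1.15 ± 0.30 (adjusted p = 0.0349), with a treated spread (SD 0.69) far above the untreated one (SD 0.04). CCNA2, cyclin A, read 10.63, 10.87 and 10.81 untreated and 10.98, 9.68 and 9.28 treated (-0.79 ± 0.35, adjusted p = 0.181). CENPF, a kinetochore protein, read 11.13, 11.22 and 11.16 untreated and 11.21, 10.24 and 10.05 treated (-0.67 ± 0.30, adjusted p = 0.185). In both, the first treated array lay within or above the untreated range and the other 2 below every untreated array. The other 18 genes had changes between -0.51 (PLK1) and 0.24 (MKI67), and the MKI67 probe sets ranged from -0.67 to 0.24.

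Without the first treated L1236 array 26 members passed. The same 3 rose, against 11.8% of genes, and 23 fell, against 10.9%. The 13 S-phase genes that then fell added CDT1, GINS1, MCM2, MCM3, MCM5, PRIM1, RFC4 and TYMS. The 10 G2 and mitosis genes were KIF11 (-1.55), CCNA2 (-1.29), CENPF (-1.02), AURKA (-0.84), KIF20A (-0.69), NUSAP1 (-0.69), CENPE (-0.65), AURKB (-0.60), TTK (-0.52) and CCNB1 (-0.47). The medians became -0.53 for S phase and -0.63 for G2 and mitosis. Without treated array 2 or 3, or untreated array 2 or 3, of L1236, 2 members passed, CDC45 upward and POLA1 downward, where 7.65%, 7.86%, 8.4% and 7.62% of all genes were called in that order.

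**Figure D4:**
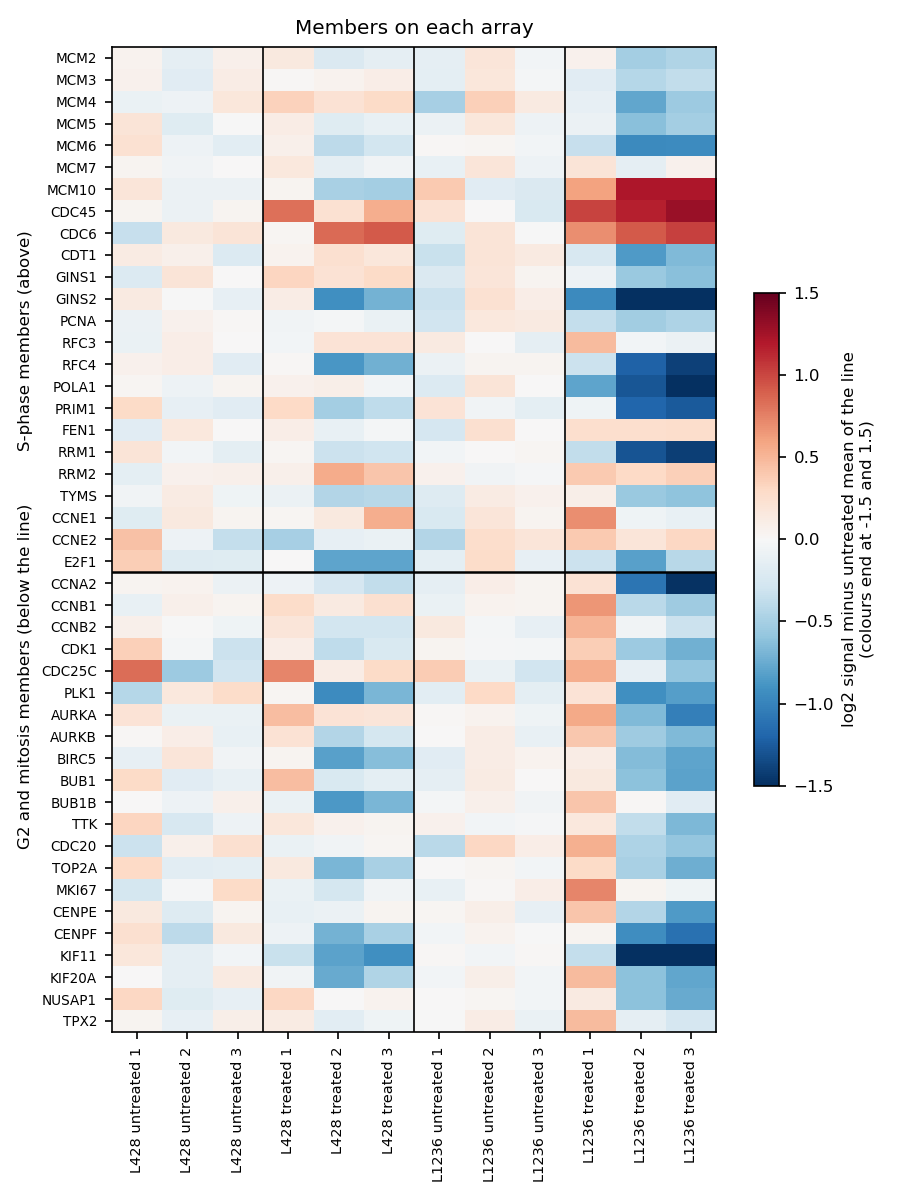
Log2 signal of each member on each of the 12 arrays minus the untreated mean of its line, from blue (lower) to red (higher), with S-phase genes above the line and G2 and mitosis genes below it. On treated L1236 arrays 2 and 3 most members are blue while CDC45, CDC6 and MCM10 are red, and on the first treated L1236 array most G2 and mitosis genes are pale red.

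By separation of arrays alone, 5 members lay wholly above untreated L1236 (MCM10, CDC45, CDC6, FEN1 and RRM2), against 15.8% of genes, and 9 lay wholly below, against 41.5%. The 9 are MCM3, MCM6, GINS2, PCNA, RFC4, POLA1, RRM1, E2F1 and KIF11. All 5 above and 8 of the 9 below are S-phase genes. The precision of the classes differed in L1236, read as the median distance from a change to the end of its 95% interval. This distance was 0.41 for the S-phase and 0.61 for the G2 and mitosis genes. In a gene of median precision, a change as large as the class median would thus have an interval that spans both signs.

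The response of L1236 differed from that of L428 by the test in 1 member, POLA1, against 4.62% of all genes. POLA1 read 9.53, 9.42 and 9.55 untreated and 9.56, 9.59 and 9.45 treated in L428, groups that overlapped with a change of 0.03 ± 0.17, and the difference of the 2 responses was -1.25 ± 0.25 (adjusted p = 0.026). Blocked by replicate number, its adjusted p was 0.0492. The call was lost under 7 of 21 other settings, with adjusted p from 0.000446 to 0.0695 over all of them. MCM10 had a larger difference with a larger error (1.33 ± 0.33, adjusted p = 0.0588), with opposite signs in the lines. For CDC45 (0.63 ± 0.22, adjusted p = 0.183), CDC6 (0.28 ± 0.35) and KIF11 (-0.46 ± 0.43), the difference did not pass. RRM2 had nearly the same change in both lines on the probe set used (difference 0.0032 ± 0.16, 95% interval -0.35 to 0.36). A second probe set of RRM2, with a mean level of 14.05, changed by 0.21 in L428 and by 0.05 in L1236. Without the first treated L1236 array 10 members passed, against 10.7% of all genes. Without the first treated L428 array there were 4, against 9.88%, and without the first untreated L1236 array 3, against 3.7%. None passed without treated array 2 or untreated array 2 or 3 of L1236, or without treated or untreated array 2 or 3 of L428. The shares of all genes called under these settings were 2.24% to 2.73%.

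Set side by side, the mean level of the 24 S-phase genes was 11.61, 11.55 and 11.53 in untreated L428 and 11.65, 11.45 and 11.51 after treatment. That of the 21 G2 and mitosis genes was 11.68, 11.49 and 11.57 untreated and 11.69, 11.24 and 11.35 treated. In L428 both classes overlapped between the groups, and the first treated array was the highest in each. In L1236 the S-phase mean was 11.52, 11.77 and 11.63 untreated and 11.66, 11.23 and 11.26 treated. The G2 and mitosis mean was 11.05, 11.15 and 11.04 untreated and 11.42, 10.55 and 10.35 treated, so its treated arrays lay on both sides of the untreated ones. Probe sets of different genes are not on 1 scale, so only the movement of the gap between the classes is read here. The S-phase mean minus the G2 and mitosis mean was -0.07, 0.06 and -0.04 in untreated L428 and -0.04, 0.21 and 0.16 after treatment, and 0.46, 0.62 and 0.59 in untreated L1236 and 0.25, 0.68 and 0.91 after treatment. The gap was wider in untreated L1236 than in untreated L428 on all arrays, and treated arrays overlapped untreated ones in both lines. Between arrays of the same number, the gap changed by 0.04, 0.15 and 0.21 in L428 and by -0.22, 0.06 and 0.33 in L1236. These are not matched changes. By the correlation of their deviations, array 1 is set apart in L428, but arrays 2 and 3 are not matched by number. In L1236 the numbers do not count as pairs. The gap on treated L428 arrays 2 and 3 lay above all untreated ones, and that on treated array 1 lay among them. As medians of gene changes, S phase minus G2 and mitosis was 0.0996 in L428 and -0.085 in L1236, and without the first treated L1236 array the latter was 0.105.

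**Figure D5:**
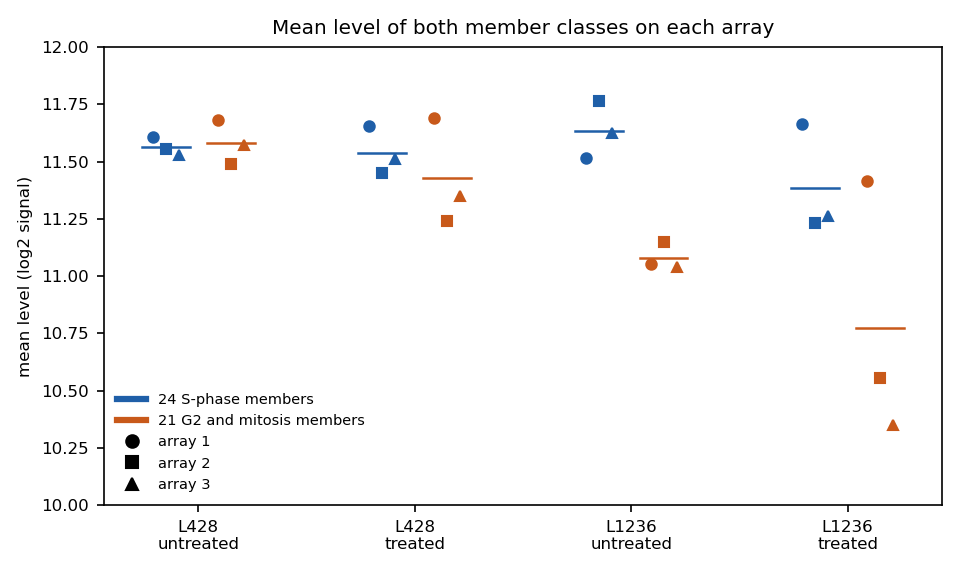
Mean log2 signal of the 24 S-phase genes (blue) and the 21 G2 and mitosis genes (orange) on each array, with a line at the mean of each group. Untreated L1236 shows the G2 and mitosis genes at 11.04 to 11.15, and the 3 treated L1236 arrays spread from 10.35 to 11.42.

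Among S-phase genes, changes of both signs occurred with and without the promoter patterns. In L1236, the 13 S-phase genes with an E2F pattern in the 300 bases had a median change of -0.42 (from -1.65 to 0.88), and the 8 without it one of 0.22 (from -1.02 to 1.16). The genes without a pattern include CDC45 and MCM10, parts of which are printed above, and RRM1, which fell. Those with it include CDC6, which rose. Among G2 and mitosis genes the 11 with a CHR pattern had a median of -0.31 and the 6 without it -0.28. In L428 the medians were -0.01 and -0.11 for S-phase genes with and without E2F, and -0.17 and -0.11 for G2 and mitosis genes with and without the CHR. CpG sites were dense in both classes, with a median ratio of observed to expected CpG of 0.970 for S-phase and 0.941 for G2 and mitosis promoters, against 0.580 over all promoters.

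Further genes of the same pathways were read from lists made by function, against the shares of all genes given for each response: 4.65% called in L428, and 8.59% higher and 6.35% lower in L1236. Of 34 other S-phase genes analysed, none was called in L428 and 4 fell in L1236, with a median of -0.27. They are the primase subunit PRIM2 (-1.24 ± 0.23), the origin recognition subunit ORC2 (-1.53 ± 0.33), the dUTPase DUT (-0.43 ± 0.11) and the clamp loader subunit RFC5. Of 39 other G2 and mitosis genes none was called in L428. In L1236 the condensin subunit SMC4 (-0.68 ± 0.12) and the cohesin protector SGO1 (-0.89 ± 0.19) fell, separase (ESPL1) rose by 0.70 ± 0.16, and the median was -0.34. Of 15 checkpoint and fork repair genes, the kinase ATM (-0.66 ± 0.15) and the helicase BLM (-0.82 ± 0.23) fell in L1236 and none was called in L428. Without the first treated L1236 array the falls in L1236 were 15 of 34 other S-phase genes, 20 of 39 other G2 and mitosis genes and 8 of 15 checkpoint genes, against 10.9% of all genes. Without treated array 2 or 3 they were 1, 1 and 0 of these lists, where 2.44% and 2.49% of all genes were called lower. Without untreated array 1, 2 or 3, the other S-phase genes had 3, 1 and 1 falls. The other G2 and mitosis genes had 2, 2 and 1, and the checkpoint genes 0, 1 and 0. Of all genes, 4.47%, 2.99% and 2.71% were called lower there.

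Of 23 genes of the RB, E2F and DREAM factors, which control when the members are transcribed, CCND1 (cyclin D1) rose by 2.06 ± 0.48 and E2F4 fell by 0.72 ± 0.17 in L428. In L1236, 5 rose and 4 fell, against 3 and 5 without the first treated array, 2 and 0 without treated array 2 or 3, 5 and 3 without untreated array 1, 2 and 2 without untreated array 2 and 1 and 2 without untreated array 3. The kinase CDK6 (1.32 ± 0.17), its partner cyclin D2 (CCND2, 1.14 ± 0.23) and the MuvB subunit LIN37 (1.02 ± 0.23) were among those that rose. SKP2, which marks the inhibitor p27 for destruction (-1.48 ± 0.35), CDK4 (-0.77 ± 0.17) and the MuvB subunit LIN9 (-0.67 ± 0.14) were among those that fell. With the same arrays of L1236 left out, the shares of all genes called higher and lower also moved. They were 11.8% and 10.9% without treated array 1, 5.2% and 2.44% without treated array 2 and 5.37% and 2.49% without treated array 3. Without untreated array 1, 2 or 3 they were 7.17% and 4.47%, 5.42% and 2.99%, and 4.91% and 2.71%. Of 9 housekeeping genes, B2M rose in L428 by 0.48 ± 0.09 and none was called in L1236, with list medians of -0.05 and -0.07.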

How the data were processed

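Total RNA was measured on Affymetrix arrays, 12 in all. The deposited log2 signals come from RMA, per the submitters' processing notes, with its version not given in the sources used here. A whole-transcript array is named in the design text, but the identifiers are those of a 3′ array, and the latter were used. Of 54675 probe sets 41097 name 1 gene, and the probe set with the highest mean was kept for each of 19775 genes. Of the 45 members 29 have several. Groups were taken from the sample descriptions. Nothing says that replicates were separate cultures, so p-values measure the spread between these samples, which may be technical, and the number of arrays limits the precision.

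Group means of all 12 arrays were fitted with limma 3.58.1 (lmFit, eBayes) in R 4.3.3, after a check on simulated data. Tests were two-sided, p-values were adjusted by Benjamini-Hochberg over all genes, and calls were made at adjusted p under 0.05. The members and lists were chosen with earlier results of these data known. Every member may be named. Array values are printed for called members, for the 3 smallest p-values per class and response and for the 2 largest differences between the untreated lines per class, and up to 3 called genes are named per list, response and direction (RFC5 was added as the remaining gene of 4). Alternatives were other normalizations and centring, a filter on dim genes, the mean over probe sets, array weights, arrays left out and a replicate block. As a check of pairing, deviations of arrays with the same number correlated at 0.164 to 0.25 between untreated and treated L428. The values were 0.107 to 0.36 between the untreated lines and 0.243 to 0.4 between the treated lines, but -0.0184 to 0.0633 in L1236. Arrays 2 and 3 correlated as well across numbers, at 0.173 between untreated array 2 and treated array 3 of L428. Untreated L428 array 3 correlated at 0.275 with untreated L1236 array 2. Untreated L428 array 1 correlated negatively with treated arrays 2 and 3 (-0.217 and -0.222). Deviations cancel out within a group, so these negative values follow from the 0.25 with treated array 1 and add no support. By the positive values, array 1 is set apart in L428 and between the lines, while arrays 2 and 3 are not matched by number. In L1236 the numbers do not count as pairs.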

Additional observations from a re-analysis of the deposited data

Results flagged for a closer look

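POLA1, the catalytic subunit of DNA polymerase alpha, was noted because its response differed between the lines by a test of the difference itself. The L1236 response minus the L428 response was -1.25 on the log2 scale (SE 0.25, adjusted p = 0.026 with limma), with treated below untreated on all L1236 arrays and overlapping groups in L428.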

How the results depend on the processing

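All called changes of members (9 in L1236, 1 in the difference, 16 between the untreated lines) kept their sign under the settings tried. Among changes not called, the sign turned under some setting in 25 of 45 members in L428 and 13 of 36 in L1236, including RRM2 with arrays centred on their medians (-0.084, adjusted p = 0.566, in L428 and -0.13 in L1236), and in 18 of 44 for the difference and 8 of 29 between the untreated lines. Counts of called members varied, as did the share of all genes called. That centring moved the median change of all genes to -0.45 in L428, -0.51 in L1236 and -0.25 between the untreated lines. Before it, the median over all probe sets lay between 3.01 and 3.09 on every array. Of 45 members, L428 gave 22 calls with median centring, 14 with array weights (whose estimation stopped before convergence), 15 without the first array of every group, 12 without the first treated arrays of both lines (an alternative added after the data were seen) and 0 to 4 with single arrays left out. L1236 gave 31, 35, 35, 31 and 2 to 26 under the same settings, and 4 with its own 6 arrays alone. The shares of all genes under the first 4 settings were 64.9%, 33.2%, 28.9% and 21.9% in L428 and 71.3%, 49.2%, 34.5% and 28.3% in L1236, and 11.9% with the L1236 arrays alone. The difference between responses gave 21 with array weights, 20 without the first array of every group, 13 without both first treated arrays, 2 without dim genes (28.9%, 23.8%, 16.6% and 6.97% of all genes) and 0 to 10 with single arrays left out. The untreated lines gave 31 with array weights, 29 without the first array of every group and 25 without both first treated arrays (44.3%, 37.9% and 34.0% of all genes). The S-phase minus G2 and mitosis median in L1236 was 0.105 without both first treated arrays, and -0.241 to 0.105 with single arrays left out. With the replicate number as a block the counts were 0 in L428, 11 in L1236, 1 for the difference and 16 between the untreated lines. The shares of all genes called there were 5.71%, 17.5%, 3.95% and 30.5% in that order. In L428 and between the lines, array 1 is set apart, while arrays 2 and 3 are not matched by number. There the block took away the calls of FEN1 and MCM2 alone among the members called without it. The cause was not tested. For named members, 618 results kept their side of the threshold, 32 gained and 96 lost a call. Signals give no counting depth.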
